A study of Sus scrofa with 8 samples.

Results

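Genes of fatty acid synthesis, oxidation, binding and storage were examined in boar testis. The set comprised FASN, SCD, ACACA, PPARA, PPARG, CPT1A, CPT1B, FABP3, FABP4 and PLIN2. It was taken as a named list whose rule used no measured value, but it was chosen with earlier results of these data known. A probe was assigned to a gene through the RefSeq accession that the scanner file gives for it. Of the 10 genes, 8 had at least 1 probe, against 2228 genes with a named probe on the whole array. No probe could be matched to PPARA or FABP3, and both are not analysed here. The 8 genes were covered by 19 of the 43603 probes, and 18 of these were present in testis, which means called well above the local background for 2 or more of the 4 boars on either diet.

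Total RNA from the testes of 8 Large White boars was hybridized with a single dye, Cy3, to 1 porcine Agilent array per boar. From 1 to 10 months of age, 4 boars received a standard diet with methylating micronutrients added (methionine, betaine, choline, folate and the vitamins B6 and B12), and 4 boars received the standard diet alone. The question was whether this feeding shifted transcript levels in the testis. The supplemented boars were m_9597, m_9599, m_9499 and m_9527, the control boars m_9598, m_9600, m_9502 and m_9528, and values of single boars are given in that order throughout. The boars m_9597, m_9599, m_9598 and m_9600 were full brothers from 1 litter and were hybridized on 1 slide, the other 4 boars on the second slide, so that effects of litter and of slide cannot be told apart. According to the methods the 8 boars came from several litters and were allotted to the diets within litter, but how the boars of the second slide divide into litters is not given in the sources used here. Each slide held 2 boars of each diet, and on both slides the diets took the same places, and array position and feeding cannot be told apart. Whole testis was used, and fewer cells of a type and less RNA per cell cannot be told apart in such samples.

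Fatty acids are made in the cytosol, where acetyl-CoA carboxylase (ACACA) forms malonyl-CoA, fatty acid synthase (FASN) builds palmitate from it and stearoyl-CoA desaturase (SCD) introduces a double bond. Carnitine palmitoyltransferase 1 (CPT1A, CPT1B) admits long-chain fatty acids to the mitochondrion for oxidation and is inhibited by malonyl-CoA, while surplus fatty acids are esterified and kept in lipid droplets coated by perilipins such as PLIN2. In the testis, Sertoli cells hold lipid droplets and oxidise fatty acids, Leydig cells draw on stored cholesterol esters for steroid synthesis, and germ cells build membranes rich in polyunsaturated fatty acids.

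The median spot intensity was 108 to 192.5 over the 8 arrays, 4.91 to 7.40 times the median background, and no spot was saturated. The labelled tissue was borne out by its markers, since the spermatid genes PRM1, PRM2, ACR and ODF1 and the Leydig cell gene INSL3 were well above background on all 8 arrays. Of 7 adipocyte marker probes 5 were present, and 4 of them, for ADIPOQ, LEP, LIPE and RETN, were above background on all 8 arrays. PLIN1, the droplet protein of fat cells, was above background on 1 of 8 arrays. Levels are log2 signals after quantile normalization without background subtraction, which understates the differences of dim probes, and differences are supplemented minus control diet on that scale. Signals of different probes are not on a common scale, so that levels were compared between boars but not between genes.

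None of the 18 present probes separated the diets, and every difference was smaller than 1.5-fold, as were those of 94.8% of all 36982 present probes. In limma, 0 of the 18 probes had an unadjusted P under 0.05, against 1.86% of all present probes, and the ordinary equal-variance test also gave 0 of 18. After adjustment over all present probes, 0% of them passed 0.05, and the smallest adjusted p among the 18 was 0.840. The boars of the 2 diets overlapped at all 18 probes, while the diets did not overlap at 1.13% of all present probes. The median difference was 0.04, with 12 probes higher and 6 lower in sign, beside -0.00 over all present probes. The SD over the 8 boars had a median of 0.32 for these probes and of 0.30 for all present probes.

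**Figure D1:**
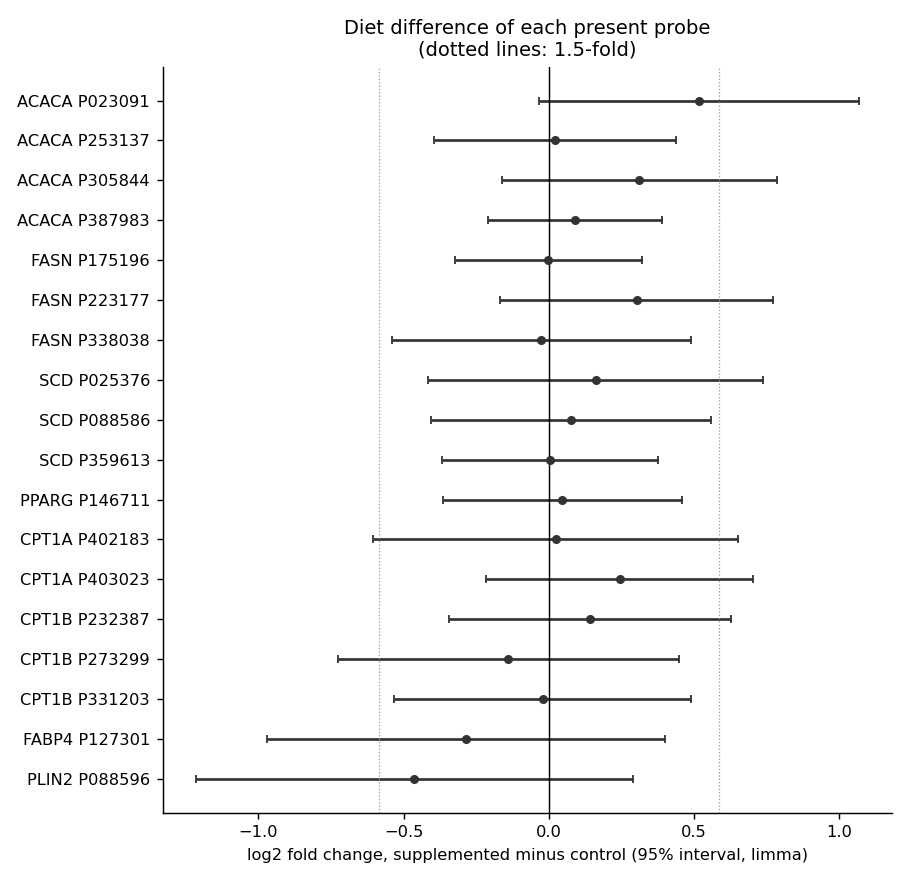
Diet difference at each of the 18 present probes, as supplemented minus control diet on the log2 scale (horizontal axis), with the 95% interval from limma as bars and 4 boars per diet. All 18 intervals include 0, and the largest differences are 0.52 for an ACACA probe and -0.46 for the PLIN2 probe.

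Among the synthesis genes, ACACA, which catalyses the committed step, showed the widest difference of the set. At probe A_72_P023091 the supplemented boars had 6.33, 6.27, 6.44 and 7.09 and the control boars 5.95, 5.99, 6.53 and 5.59. The supplemented boar m_9527 was highest, and the control boar m_9502 lay within the supplemented range, so that the diets overlapped through a single boar. The means were 6.53 ± 0.38 and 6.01 ± 0.39 (SD, n = 4 each), a difference of 0.52 (SE 0.25, 95% interval -0.03 to 1.07, limma adjusted p = 0.840, exact permutation test p = 0.114). At A_72_P305844 the supplemented boars had 7.25, 7.12, 7.23 and 7.70, and the control boars 6.87, 6.79, 7.55 and 6.85. Here too m_9502 was the control boar within the supplemented range, and the difference was 0.31 (95% interval -0.16 to 0.79, exact permutation test p = 0.229). The 2 probes moved together over the 8 boars (Pearson r = 0.93, as a description), although both were dim, at 2.44 to 8.18 times background. Without m_9502 both had an unadjusted P under 0.05 in limma, with differences of 0.69 and 0.49, and neither passed after adjustment. Leaving out m_9502 also raised the count of probes with such a P over all 36982 present probes, from 689 to 6155. Without m_9527 the differences of these 2 ACACA probes were 0.33 and 0.19, and neither had such a P. The remaining ACACA probes A_72_P253137 and A_72_P387983 differed by 0.02 (95% interval -0.39 to 0.44) and 0.09 (95% interval -0.21 to 0.39), with r = 0.07 and -0.18 to A_72_P023091 over the 8 boars. The first of these rested on single boars, since it was 0.83 without the 2 boars farthest from the median.

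FASN, which assembles the chain, was far above background at A_72_P223177. The supplemented boars had 15.07, 15.16, 15.24 and 15.73 and the control boars 15.11, 15.12, 15.23 and 14.52, which is 986 to 2086 times background. The values of 6 boars lay between 15.07 and 15.24, m_9527 stood above them and m_9528 below, both on the slide without the brothers. The difference was 0.30 (SE 0.21, 95% interval -0.17 to 0.77, exact permutation test p = 0.286), and it was 0.14 without m_9528 and 0.16 without m_9527. It was -0.00 between the brothers and 0.61 between the other boars, and the difference of these 2 values, -0.61 (SE 0.41), had an adjusted p = 1. The FASN probes A_72_P338038 and A_72_P175196 differed by -0.03 and -0.00, with 95% intervals of -0.54 to 0.49 and -0.32 to 0.32. Neither closely followed the bright probe over the boars (r = -0.38 and 0.43).

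SCD, the desaturase that makes oleate from stearate, had no diet difference past the threshold at any of its 3 probes. At A_72_P025376 the supplemented boars had 10.90, 10.89, 11.36 and 10.83 and the control boars 11.23, 11.32, 10.31 and 10.46. Both control brothers exceeded both supplemented brothers, and both other control boars lay below both other supplemented boars. The overall difference was 0.16 (SE 0.26, 95% interval -0.42 to 0.74, adjusted p = 0.877). At A_72_P088586 the supplemented boars had 12.52, 12.38, 13.25 and 12.78 and the control boars 12.81, 12.76, 12.30 and 12.76, with the same reversal between the slides and an overall difference of 0.08 (95% interval -0.41 to 0.56). The dimmer probe A_72_P359613 differed by 0.00 (95% interval -0.37 to 0.38).

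**Figure D2:**
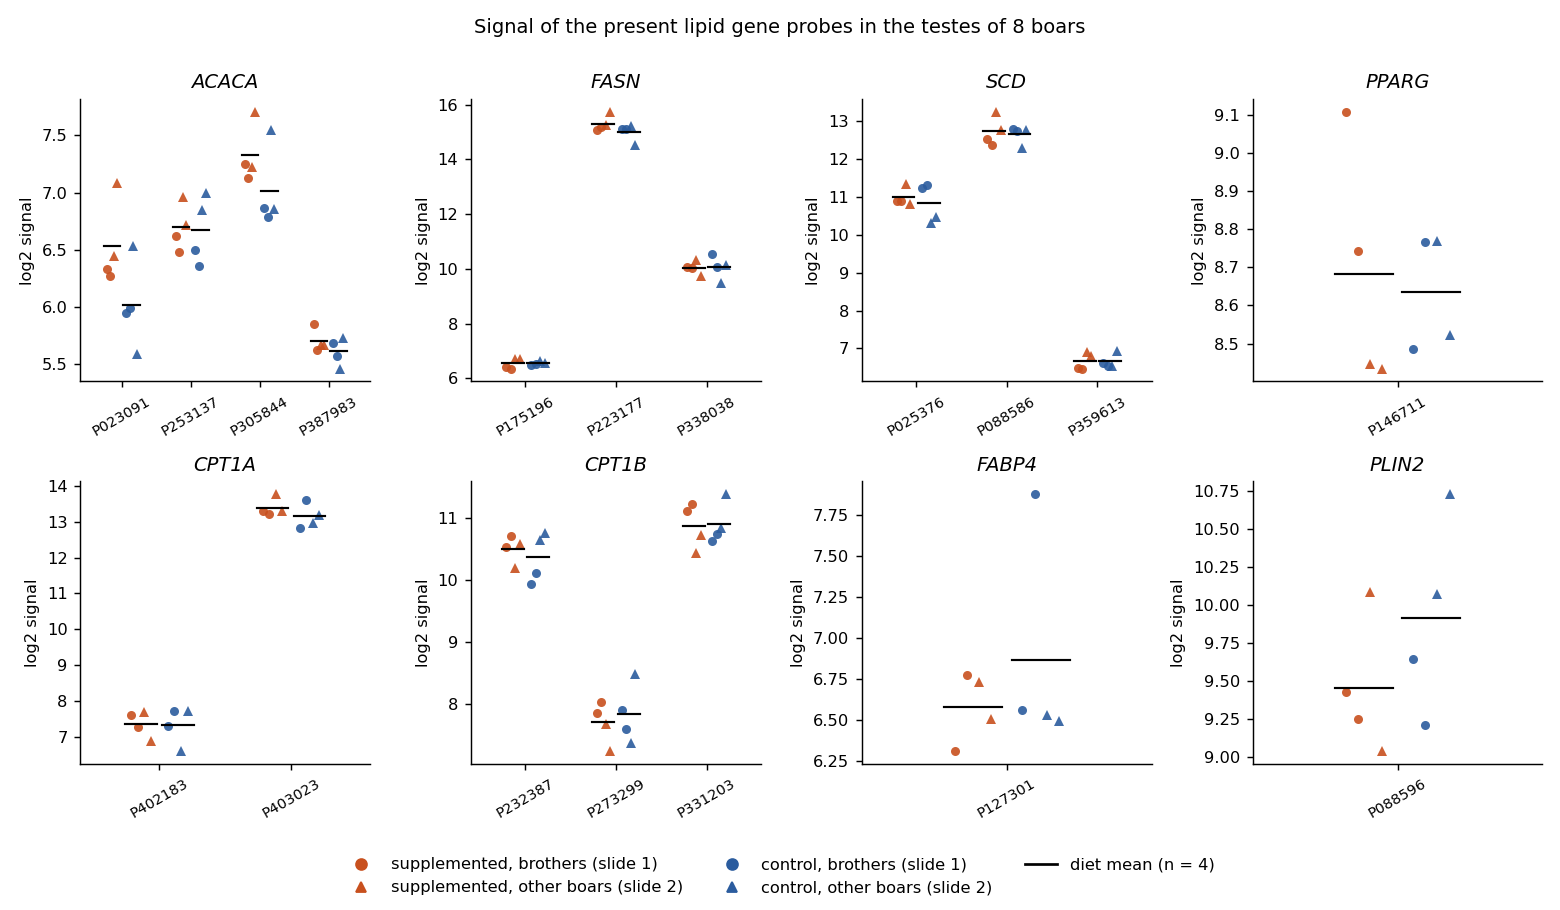
Log2 signal (vertical axes) of each boar at the 18 present probes of the 8 genes, 1 panel per gene, with colour for the diet, circles for the brothers, triangles for the other boars and a black line for the mean of 4 boars (probe names without their prefix). The diets overlap at every probe, the FASN control boar at 14.52 and the FABP4 control boar at 7.88 stand apart from the others of their diet, and the vertical axes differ between panels and do not start at 0.

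PPARG, the nuclear receptor that drives fat cell differentiation and lipid uptake, had 1 probe, A_72_P146711. The supplemented boars had 9.11, 8.74, 8.45 and 8.43, and the control boars 8.49, 8.77, 8.77 and 8.52. The supplemented boars held both the highest and the lowest value, with the control boars between them, and the difference was 0.05 (95% interval -0.36 to 0.46, exact permutation test p = 0.943). The probe lay 8.41 to 22.7 times above background.

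Of the oxidation genes, CPT1A encodes the liver form of carnitine palmitoyltransferase 1. Its bright probe A_72_P403023 gave 13.29, 13.22, 13.77 and 13.30 on the supplemented diet, and 12.83, 13.60, 12.98 and 13.19 on the control diet. The control boars m_9598, m_9502 and m_9528 lay below the supplemented range and m_9600 lay inside it, and the difference was 0.24 (SE 0.20, 95% interval -0.22 to 0.70, exact permutation test p = 0.257). Without m_9499 it was 0.12, without m_9598 0.14 and without m_9600 0.39. A dim CPT1A probe, A_72_P402183, differed by 0.02 (95% interval -0.60 to 0.65). The third, A_72_P409728, was above background on 1 of 4 arrays of each diet, at 5.13 to 5.60, and was not tested.

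CPT1B encodes the muscle form of the same enzyme, and at 2 of its probes the order of the diets was opposite on the 2 slides. At A_72_P232387 the supplemented boars had 10.53, 10.70, 10.19 and 10.58 and the control boars 9.92, 10.11, 10.64 and 10.75. At A_72_P331203 the supplemented boars had 11.10, 11.22, 10.43 and 10.72 and the control boars 10.63, 10.73, 10.83 and 11.37. At both probes the supplemented brothers exceeded the control brothers, and the other supplemented boars lay below the other control boars. Over all 8 boars the differences were 0.14 (95% interval -0.35 to 0.63) and -0.02 (95% interval -0.53 to 0.49). The third probe, A_72_P273299, at 5.26 to 18.5 times background, differed by -0.14 (95% interval -0.73 to 0.45). Striated muscle, which expresses this form strongly, was checked through 7 present marker probes. Of these 0 had an unadjusted P under 0.05 for diet in limma, against 1.86% of all present probes. The median of this list, centred on each probe's mean, was -0.23 to 0.19 over the boars. Its CKM probe ranged more widely, from 7.64 to 10.25, and differed by 0.61 among the brothers and -0.33 among the other boars. No other probe of the list had this order of signs. The part of striated muscle in the CPT1B signal was not tested.

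The diet difference was therefore also taken within each slide. Among the brothers it was 0.59 and 0.48 at the CPT1B probes A_72_P232387 and A_72_P331203, and among the other boars -0.31 and -0.52. For SCD it was -0.38 and -0.33 at A_72_P025376 and A_72_P088586 among the brothers, and 0.71 and 0.48 among the other boars. The differences between the slides, from a limma fit with diet, slide and their interaction, were 0.90 (SE 0.31) and 1.004 (SE 0.35) for CPT1B and -1.09 (SE 0.33) and -0.82 (SE 0.36) for SCD. An unadjusted P under 0.05 was reached by 3 of the 18 probes, both CPT1B probes and SCD A_72_P025376, against 2.0% of all present probes. This count was 1 without m_9599 and 5 without m_9502. After adjustment 0% of all present probes passed, and the adjusted p was 1 for each of these 4 probes. The boars of the diets were separated on both slides but in opposite directions at 5 of the 18 probes, against 3.75% of all present probes. These 5 were the 2 probes each of CPT1B and SCD and the dim FASN probe A_72_P175196 (-0.12 among the brothers and 0.12 among the others). The 5 probes stand for 3 genes, and probes of a gene share their RNA samples.

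**Figure D3:**
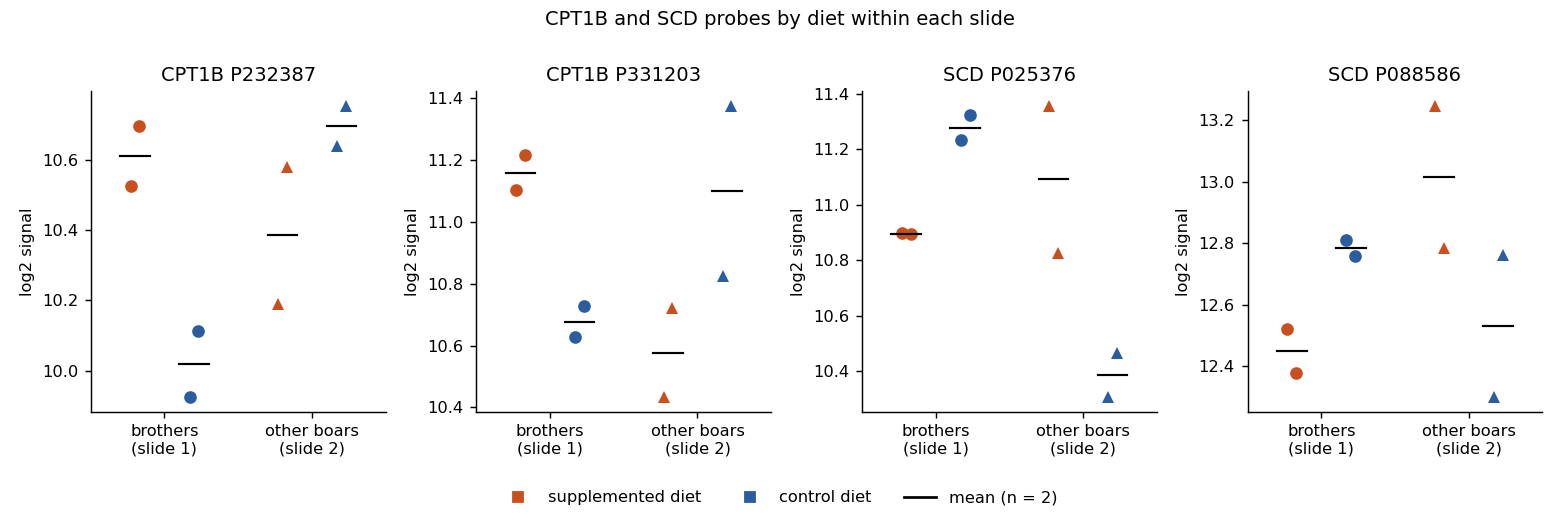
Log2 signal (vertical axes) at the CPT1B and SCD probes named in the text, by slide (horizontal axis) and diet (colour), 1 point per boar and a black line for the mean of 2 boars, with vertical axes that do not start at 0. Among the brothers CPT1B was higher and SCD lower on the supplemented diet, and among the other boars the order was turned.

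Between the slides, irrespective of diet, 1 of the 18 probes had an unadjusted P under 0.05 in limma, a share no larger than the 8.11% of all present probes. That probe was ACACA A_72_P253137, lower by 0.39 in the brothers (slide difference -0.39, SE 0.14), and 0% of all present probes passed after adjustment.

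FABP4, a fatty acid carrier of adipocytes, macrophages and capillary endothelium, had 1 probe, A_72_P127301. The supplemented boars had 6.31, 6.78, 6.73 and 6.50 and the control boars 6.56, 7.88, 6.53 and 6.50. The control boar m_9600 was above all others, and the remaining 7 boars lay between 6.31 and 6.78. The difference was -0.28 (SE 0.31, 95% interval -0.97 to 0.40, exact permutation test p = 0.686), and without m_9600 it was 0.05. The same boar had the highest median over the 5 macrophage marker probes (AIF1, CD163), 0.73 above the mean of the boars, where the other control boars had -0.55 to -0.36 and the supplemented boars -0.03 to 0.46. It also had the highest median over the 4 endothelial probes (CDH5, PECAM1), 0.35, against -0.29 to 0.06 in the other 7 boars. The summed signal of the macrophage list was 10.56 to 11.47 on the log2 scale in the supplemented and 9.89 to 11.59 in the control boars, and that of the endothelial list 11.51 to 12.44 and 11.21 to 12.17. The adipocyte list had a median of -0.22 in m_9600, its lowest value, and a summed signal of 14.65 to 15.11 on the supplemented and 14.21 to 15.20 on the control diet. That sum was carried mainly by the LIPE probe, at 13.82 to 15.03 over the boars, while the LEP probe had 10.92 to 12.02. It is therefore not a measure of adipocyte content. The part of these cells in the FABP4 signal was not tested.

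**Figure D4:**
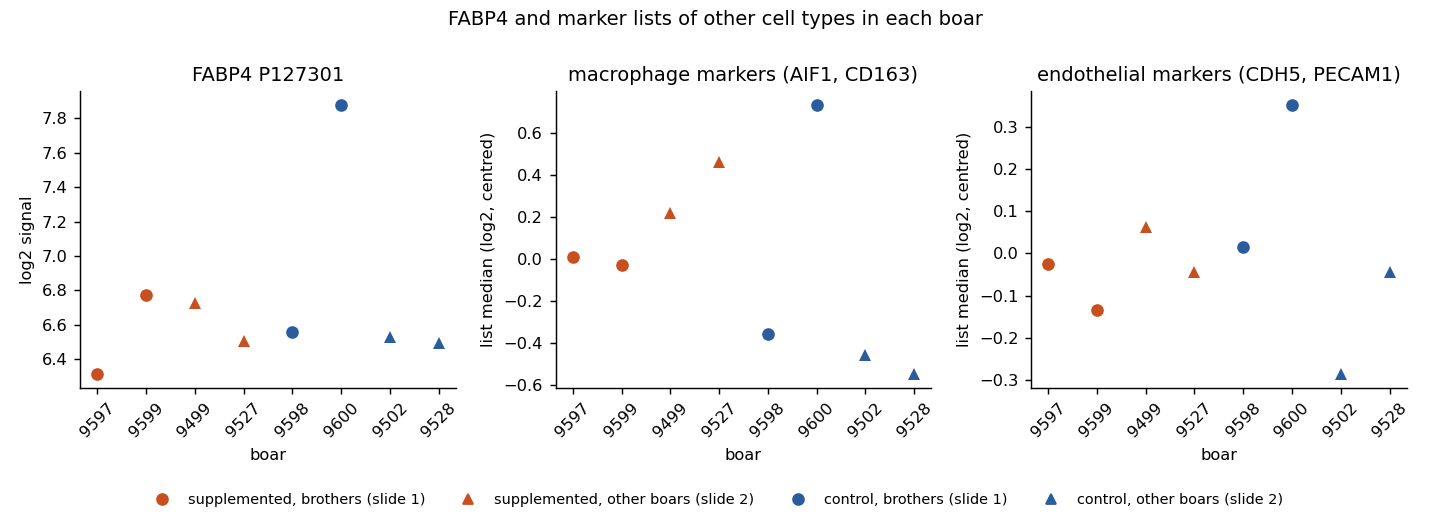
FABP4 log2 signal and the median of the macrophage and of the endothelial marker probes (vertical axes, log2, the medians centred on the mean of each probe) in each of the 8 boars (horizontal axes), with colour for the diet and shape for the slide. The control boar m_9600 is highest in all 3 panels, at 7.88, 0.73 and 0.35.

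PLIN2, which coats lipid droplets in most cells, had the widest spread among boars at the brightest probe of each gene, with an SD of 0.57 over the 8 boars. At its only probe, A_72_P088596, the supplemented boars had 9.43, 9.25, 10.09 and 9.04, and the control boars 9.65, 9.21, 10.07 and 10.73. The control boar m_9528 was highest and the supplemented boar m_9527 lowest, while the brothers of both diets lay between 9.21 and 9.65. The means were 9.45 ± 0.45 and 9.92 ± 0.65 (SD, n = 4 each), a difference of -0.46 (SE 0.34, 95% interval -1.22 to 0.29, adjusted p = 0.840, exact permutation test p = 0.314). The value depended on single boars, with -0.19 without m_9528 and -0.70 without m_9600. Within slides it was -0.09 among the brothers and -0.84 among the other boars. The median of the 11 Leydig cell marker probes was lowest in the same boar m_9527 (-0.92), highest in m_9499 (1.12), and 0.41 in m_9528. It was -0.16 in m_9502, where PLIN2 was as high as 10.07, and -0.32 to 0.37 in the brothers. The summed signal of this list was 18.60 to 19.06 on the supplemented and 18.71 to 18.92 on the control diet. That sum was carried mainly by the INSL3 probe, at 18.50 to 18.74 over the boars, while the STAR probe ranged from 10.15 to 13.69. The part of Leydig cells in the PLIN2 signal was not tested.

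The probes most like the most variable genes were sought among the 2918 named present probes, as a description over 8 boars. Among the probes most like PLIN2 were those of the adenosine receptor ADORA1 (r = 0.96, and 0.96 without m_9528) and the amino acid transporter subunit SLC3A1 (r = 0.94, and 0.87 without m_9528). FABP4 was most like the chemokine CCL2 at A_72_P412643 and A_72_P035346 (r = 0.98 and 0.97) and the acute phase protein haptoglobin, HP (r = 0.97). These values rested largely on m_9600, without which they were 0.78, 0.67 and 0.75. ACACA A_72_P305844 was most like RABGGTA, DMP1 and CRH (r = 0.98 each, and 0.97, 0.96 and 0.96 without m_9527).

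Beyond these 8 genes, a list of 93 further lipid genes was taken along, of which 39 had a probe, and 61 probes of 38 genes were present. Their median difference was 0.01, and 5 of the 61 had an unadjusted P under 0.05 in limma, 1 higher and 4 lower on the supplemented diet. The PLIN5 probe and the ECI2 probe A_72_P164526 had entered only through a table that the study selected on these boars, and the higher probe was that of PLIN5. Among the other 59 probes 0 were higher and 4 lower, against 0.938% and 0.925% of all present probes. None of these 4 passed after adjustment (limma adjusted p = 0.840 for each), and PLIN5 is not counted as tested. The count over the 61 probes, which includes PLIN5, rested on single boars. It was 13 without m_9502, 0 without m_9598 or m_9600, 1 without m_9597 and 2 without m_9527 or m_9528. The count over all 36982 present probes moved too, from 689 to 6155 without m_9502, 369 without m_9598 and 1213 without m_9600. It was 568 without m_9597, 438 without m_9527 and 339 without m_9528. By role, the median difference was 0.12 for 6 probes of synthesis, 0.04 for 6 of nuclear receptors, -0.07 for 14 of mitochondrial oxidation, -0.16 for 4 of peroxisomal oxidation, -0.05 for 17 of uptake and binding and 0.01 for 14 of storage and lipolysis. The synthesis, nuclear receptor and mitochondrial genes contributed 0 of the 5 probes, where 1.86% of all present probes had an unadjusted P under 0.05. With so few probes per role, no difference between roles can be read from this.

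The PLIN5 probe, for a perilipin that tethers droplets to mitochondria, had 9.67, 9.63, 9.60 and 9.30 in the supplemented boars and 9.19, 9.13, 9.28 and 9.12 in the control boars. The diets did not overlap and the difference was 0.37, which is given as a description without a test because the probe was chosen on these boars. The ECI2 probe A_72_P164526, of an enzyme of unsaturated fatty acid oxidation, was chosen in the same way and is also given without a test. Its diets overlapped, it lay only 1.74 to 2.95 times above background, and its difference was 0.26. The other ECI2 probe, A_72_P216272, at 5.22 to 13.65 times background, went the other way with -0.36. Of the 4 lower probes, that of HSD17B4, the multifunctional enzyme of peroxisomal oxidation, had the widest difference, with 12.28, 12.43, 12.72 and 11.50 in the supplemented and 14.00, 13.39, 11.98 and 14.74 in the control boars. The control boar m_9502 fell within the supplemented range and the difference was -1.29 (SE 0.52, 95% interval -2.47 to -0.12, exact permutation test p = 0.114). ACSL4, which activates polyunsaturated fatty acids, differed by -0.49 at A_72_P177931 and -0.58 at A_72_P283184, and its other 4 probes by -0.55, -0.45, 0.39 and 0.06. The fatty acid translocase CD36 differed by -0.54 at A_72_P303204 and by -0.03 at its other probe. The first was -0.31 without m_9527 and then had no unadjusted P under 0.05 in limma. The same held when m_9499, m_9598, m_9600 or m_9528 was the boar left out. HSD17B4 lost such a P without m_9597, m_9598, m_9600, m_9527 or m_9528. The ACSL4 probes A_72_P177931 and A_72_P283184 kept it only when m_9502 was left out.

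**Figure D5:**
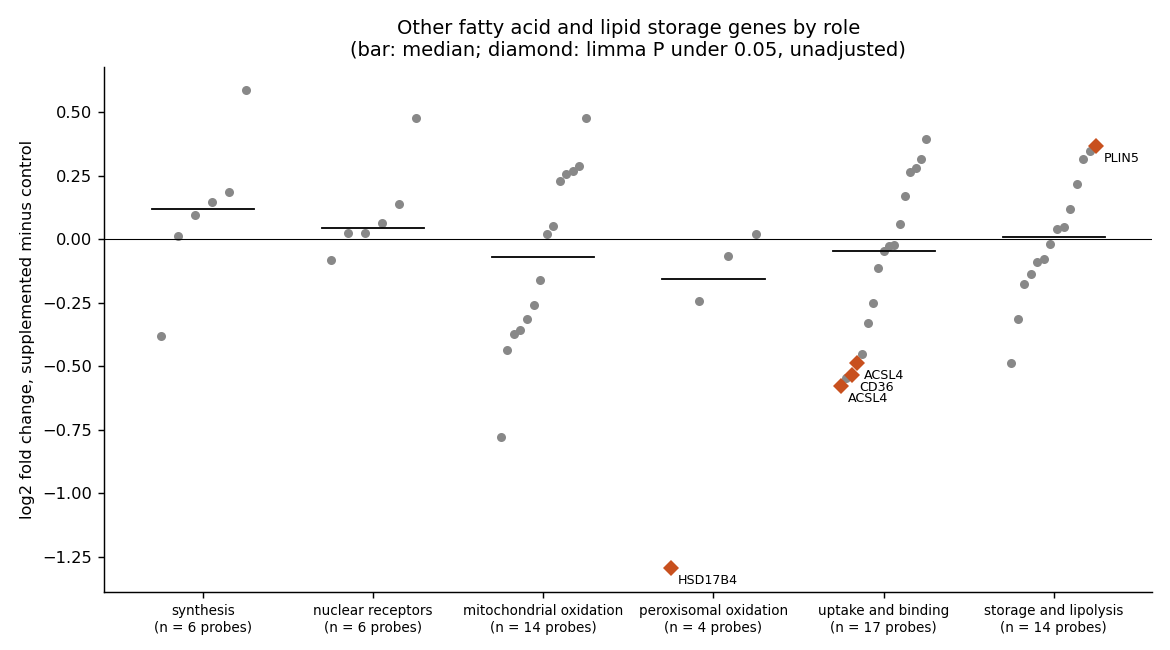
Diet difference (log2, supplemented minus control) at each of the 61 present probes of the 38 further lipid genes, by role (horizontal axis), 1 point per probe, with the median of each role as a line and the 5 probes with an unadjusted P under 0.05 as diamonds. Medians lie between -0.16 and 0.12, and the HSD17B4 probe at -1.29 is farthest from 0. The PLIN5 diamond is of a probe that was chosen on these boars.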

How the data were processed

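Testis RNA of 8 boars was measured on one-colour Agilent arrays. The authors deposited the scanner output, which holds the intensity of each spot as written by Feature Extraction (10.5.1.1 per the file headers), not normalized between arrays. They also deposited log2 values, which matched the quantile-normalized log2 median signal of the scanner files (correlation of 1 on each array, for 35258 probes) and served as an alternative.

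Here, control spots were left out, and the median signal (gMedianSignal, the study's raw value) of the remaining 43803 spots was put on the log2 scale and quantile-normalized, with no background subtracted. Spots of a probe were averaged. Probes were present with a signal above 25 and the flag for well above background for 2 or more of the 4 boars of either diet. Diets were compared with limma 3.58.1 under R 4.3.3 (two-sided test, Benjamini-Hochberg adjusted over 36982 probes) and by exact permutation of the boars. RefSeq names (2628 probes matched, 3064 named in all) come from assembly Sscrofa11.1, used for names only. Figures were drawn with matplotlib 3.10.9. The code was tested on simulated data. The number of arrays limits the precision.

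The genes, the lipid list and the cell type markers were chosen with earlier results of these data known. All probes of the 8 genes are named, as are other lipid genes with an unadjusted P under 0.05 and, for the 3 genes most variable at their brightest present probe, the 3 most similar named probes. For ACACA this was A_72_P305844. For PLIN2, 1 of these 3 is not reported here. Alternatives were other scalings, background corrections, filters and variances, the slide as a block, each slide alone, and each boar left out. No probe of the red blood cell list was found. Over the adipocyte, striated muscle, Leydig cell, Sertoli cell, spermatocyte, spermatid, macrophage, endothelium and peritubular cell lists, 0 probes had an unadjusted P under 0.05 for diet in limma. Over all present probes this share was 1.86%.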

Additional observations from a re-analysis of the deposited data

Results flagged for a closer look

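In 7 of the 46 sets of 4 boars of a diet examined, 1 boar stood apart from the other 3. A nominal rate of 1 in 20 would give about 2.3. The share over all present probes was not computed, so whether this count is particular to these genes was not tested. The sets include those of the 5 further lipid probes with an unadjusted P under 0.05, and several probes of a gene come from the same boars. The supplemented boar m_9499 had 11.36 at SCD A_72_P025376 (others 10.83 to 10.90) and 13.77 at CPT1A A_72_P403023 (others 13.22 to 13.30). The control boar m_9502 had 12.30 at SCD A_72_P088586 (others 12.76 to 12.81), 7.55 at ACACA A_72_P305844 (others 6.79 to 6.87) and 10.05 at ACSL4 A_72_P177931 (others 10.84 to 10.98). The control boar m_9600 had 7.88 at FABP4 (others 6.50 to 6.56). The control boar m_9528 had 14.52 at FASN A_72_P223177 (others 15.11 to 15.23).

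At 5 probes both boars of one diet exceeded both of the other on each slide, with the order turned between slides. The diet difference of the brothers minus that of the other boars was 0.90 at CPT1B A_72_P232387, 1.004 at CPT1B A_72_P331203, -1.09 at SCD A_72_P025376, -0.82 at SCD A_72_P088586 and -0.25 at FASN A_72_P175196. The limma interaction had an adjusted p of 1 at each. Litter, slide and everything handled with a slide cannot be told apart.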

How the results depend on the processing

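No paired analysis was possible because the labels carry no replicate numbers and the sources used here do not give the litter of each boar of the second slide, so no litter block could be fitted. The slide was used as a block instead, which changed none of the counts below by more than 1.5 times. Of the 18 probes, 0 had an adjusted P under 0.05 under every alternative run. With an unadjusted P under 0.05 there were 3 when arrays were weighted, 3 in the brothers alone and 0 to 2 with a boar left out (2 without m_9502). Over all present probes this count was 689, and 5830 with array weights, 2381 in the brothers alone, 359 on the other slide alone and 339 (without m_9528) to 6155 (without m_9502) with a boar left out. After adjustment it was 0, and 1 when arrays were weighted, 3 in the brothers alone and 0 to 1 with a boar left out. Background-subtracted signals scaled to the 75th percentile, a setting that changes both the background and the normalization, gave 260 higher and 759 lower probes, where the values used here gave 347 and 342. The further lipid genes had 5 such probes, among them that of PLIN5, which was chosen on these boars. The count was 2 with the ordinary test, 14 with array weights and 3 with an intensity trend. It was 12 in the brothers alone, 1 on the other slide alone and 0 to 13 with a boar left out. The slide interaction was reached by 3 of the 18 probes, and by 1 with background-subtracted, percentile-scaled signals. The share over all present probes was not computed for that setting.

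Differences of these probes, none of which passed the test over the 8 boars, changed sign in 50 of the cases computed. With array weights they were 0.28 for CPT1B A_72_P331203 and -0.14, -0.16 and -0.0747 for SCD A_72_P025376, A_72_P088586 and A_72_P359613. In the brothers alone they were -0.0696 for CPT1A A_72_P402183, 0.19 and 0.48 for CPT1B A_72_P273299 and A_72_P331203, -0.0013 for FASN A_72_P223177 and -0.38, -0.33 and -0.11 for the SCD probes in the order above. On the other slide alone they were -0.0778 for ACACA A_72_P253137, -0.31 for CPT1B A_72_P232387, 0.10 for FABP4, 0.12 and 0.21 for FASN A_72_P175196 and A_72_P338038 and -0.21 for PPARG. FASN A_72_P175196 was 0.0062 with 75th percentile scaling and 0.0222 with background-subtracted, percentile-scaled signals, SCD A_72_P359613 -0.0394 with the latter, and ACACA A_72_P253137 -0.001 with normexp. With a boar left out, the ranges were -0.0841 to 0.13 for ACACA A_72_P253137, -0.22 to 0.18 for CPT1A A_72_P402183, -0.0035 to 0.27, -0.29 to 0.0767 and -0.14 to 0.14 for CPT1B A_72_P232387, A_72_P273299 and A_72_P331203, -0.41 to 0.0524 for FABP4, -0.0586 to 0.0623 and -0.22 to 0.13 for FASN A_72_P175196 and A_72_P338038, -0.0941 to 0.13 for PPARG, and -0.0133 to 0.33, -0.0957 to 0.19 and -0.0809 to 0.10 for SCD A_72_P025376, A_72_P088586 and A_72_P359613. The cause of these changes was not tested. Dim probes, such as those of ACACA and FABP4 at under 10 times background, are limited by their signal.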
